A study of Mus musculus with 6 samples.

Results

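Non-homologous end joining is the repair route that rejoins the ends of a broken DNA molecule without a template. The 8 factors described here are Xrcc6 and Xrcc5 (the Ku subunits), Prkdc, Dclre1c, Lig4, Xrcc4, Nhej1 and Trp53bp1. They were found on the array through the RefSeq accession of each probe, which gave 12 probes for the 8 genes, out of 19984 genes named in this way. The cells were C57BL/6J mouse progenitors at embryonic day 14.5, dissected as dorsal telencephalon and sorted for a DNA content typical of S phase. All embryos were heterozygous for a GFP knock-in at the Tis21 (Btg2) locus, so both groups carry the reporter allele. The 3 Tis21-GFP positive samples hold the S-phase cells with reporter signal, which marks progenitors that have turned to making neurons, and the 3 Tis21-GFP negative samples hold the S-phase cells without it. Each sample pooled hemispheres of several embryos and was hybridised to 1 array. The series text says that the replicates were independent experiments and that the best of a larger number were kept.

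In this pathway the ring formed by Ku70 (Xrcc6) and Ku80 (Xrcc5) slides onto a DNA end and brings in the kinase DNA-PKcs (Prkdc), which activates the nuclease Artemis (Dclre1c). The ends are then sealed by DNA ligase IV (Lig4) with its scaffold Xrcc4 and the bridging protein XLF (Nhej1), while 53BP1 (Trp53bp1) on the nearby chromatin shields ends from resection. In S phase a sister chromatid is also at hand for homologous recombination, and resection of the ends commits a break to that route. In the embryonic cortex the pathway is known from mice without Lig4 or Xrcc4, in which many newborn neurons die.

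The 3 probes called higher in Tis21-GFP positive cells were 1 each of Trp53bp1, Lig4 and Dclre1c, with differences of 1.53- to 1.71-fold. The other tested probes of Trp53bp1 and Dclre1c were not called. Of the 12 probes, 11 were tested, at least 1 for each gene, and all 11 were well above background on all 6 arrays. The threshold was an adjusted p of 0.05 in limma. These 3 of 11 probes (27.3%) stand beside 7.52% of all 28922 tested probes called higher, and 0 of the 11 were called lower, beside 8.96% of all probes, so that 16.5% of all probes were called in one direction or the other. At an unadjusted p under 0.05, 7 of the 11 differed. This threshold is much looser, since the second Trp53bp1 probe, at an unadjusted limma p of 0.0495, had an adjusted p of 0.149. The share of all probes under it is not given here, so unadjusted counts, here and below, have no background beside them. Each of the 11 had a positive log2 difference under this scaling (Xrcc6 and Prkdc turned negative under others), between 0.13 and 0.77 with a median of 0.35, whereas the median over all tested probes was 0.087 and 57.7% of them were positive. The 3 positive arrays lay above the 3 negative arrays for 9 of the 11 probes, against 24.6% of all tested probes. The exceptions were Xrcc6 and Prkdc. The count of called members was 0 without Tis21-GFP negative replicate 1 (3 at an unadjusted p under 0.05), 0 without Tis21-GFP negative replicate 3 (5 unadjusted) and 1 without Tis21-GFP positive replicate 1. Leaving out a library did not turn the direction of any of the 11.

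**Figure D1:**
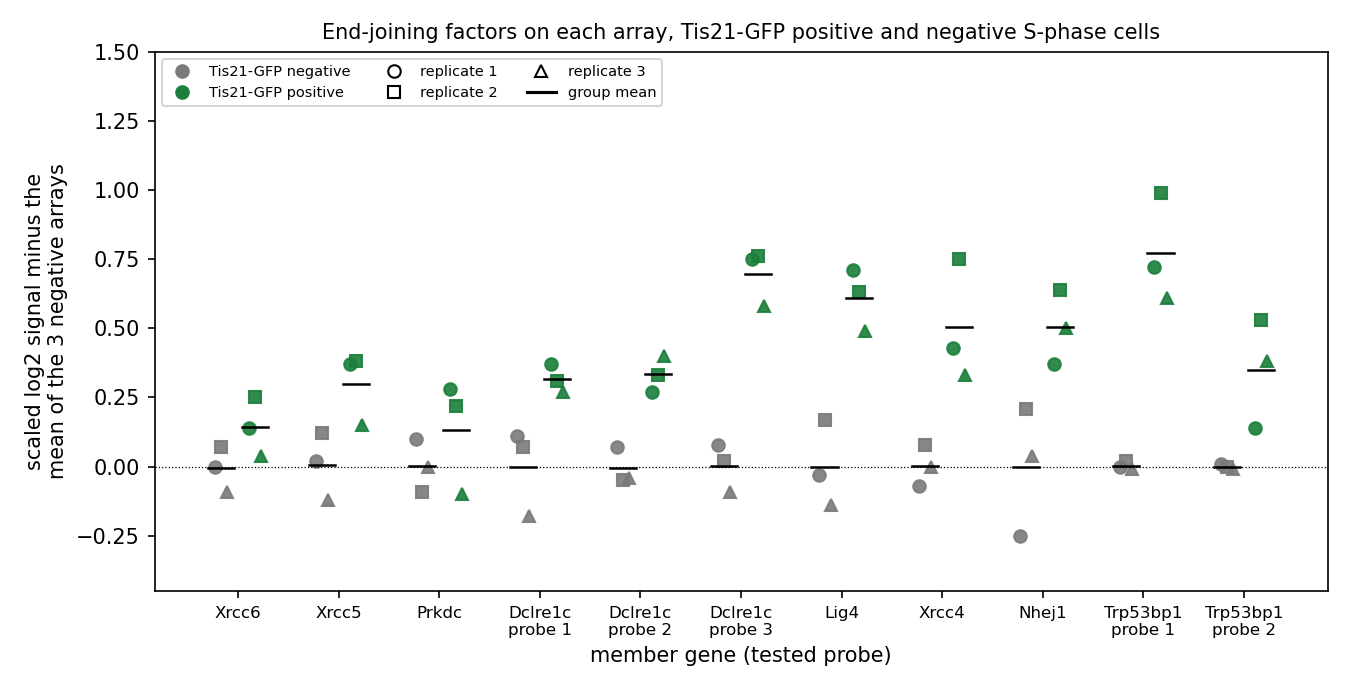
Scaled log2 signal of each tested probe on each array, minus the mean of the 3 Tis21-GFP negative arrays, for the 8 end-joining genes (grey, negative; green, positive; shapes mark the replicate number; bars mark group means). The green points lie above the grey ones for 9 of the 11 probes and overlap them for Xrcc6 and Prkdc.

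The signal used is the log2 processed intensity minus the 75th percentile of its array, so 0 means a spot as bright as that percentile. A level on this scale compares arrays for 1 probe and not 1 probe with another. Where the scaling moved all probes, it moved these too. The median difference over all probes was 0.268 with median centring and -0.087 with the percentile taken over probes well above background on all 6 arrays, and the median over the members was then 0.53 and 0.18. Of all calls, 45.6% were higher, against 65.2% and 24.8% under those settings and 56.2% with normexp background correction. Under the 5 other ways of scaling or background correction, between 2 and 4 member probes were called, each of them higher. Of these ways, quantile normalization and the authors' deposited values gave nearly the same differences.

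Stretches of DNA before the starts of 4 members are shown first, because 3 of these genes share their start region with another gene and the fourth, Trp53bp1, was called under all 6 ways of scaling or background correction. They are RefSeq sequence of build GRCm38.p6, read 5′ to 3′ on the strand of the member. Of the 8 members, 7 matched the promoter table and Prkdc did not. For Lig4 (chr8:9977681-9977716, minus strand), Xrcc4 (chr13:90089609-90089666, minus strand) and Xrcc6 (chr15:82016221-82016368, plus strand) the stretch runs from the start of the neighbouring, divergently transcribed gene to the base before the member's own start. For Trp53bp1 (chr2:121271408-121271657, minus strand) it is the 250 bases before the start. Capitals mark matches to the motifs searched.
Lig4: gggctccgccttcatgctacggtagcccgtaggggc
Xrcc4: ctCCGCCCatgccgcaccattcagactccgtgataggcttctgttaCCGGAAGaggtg
Xrcc6: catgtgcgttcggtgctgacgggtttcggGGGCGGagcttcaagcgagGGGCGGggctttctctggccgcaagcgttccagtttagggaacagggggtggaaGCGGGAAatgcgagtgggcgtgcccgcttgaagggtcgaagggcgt
Trp53bp1: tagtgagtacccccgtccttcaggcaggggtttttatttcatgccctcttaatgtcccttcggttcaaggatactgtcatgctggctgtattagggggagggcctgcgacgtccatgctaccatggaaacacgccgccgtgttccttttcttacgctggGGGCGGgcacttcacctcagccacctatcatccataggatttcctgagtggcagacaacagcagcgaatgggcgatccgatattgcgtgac

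The motifs were searched on both strands in the 250 bases before each start, which for the members gave 8 windows because Lig4 has 2 starts in the table. The GC box (GGGCGG) was in 6 of the 8 windows and in 32.7% of all 32851 windows of the table. The ETS motif (CCGGAAG) was in 3 windows, those of Lig4 and Xrcc4, against 6.91% of all. The core of the E2F site (TTCCCGC), the motif of the factors that drive many S-phase genes, was in the windows of Xrcc4 and Xrcc6, against 3.82%, and in Xrcc4 it lay beyond the stretch printed. The NRF1 motif was in both Lig4 windows, also outside the stretch printed, against 3.74%. The CCAAT box (CCAAT) was in those of Dclre1c and Xrcc5, against 33.8%. A second E2F form (TTGGCGC, 1.97% of all windows) and the TATA box (TATAAA, 12.4%) were in 0 of the 8. The matches printed do not overlap, and a match is a run of letters and not a measured binding site.

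Under the main scaling, differences were smallest for the kinase Prkdc and for Xrcc6, 1 subunit of Ku, the sensor of DNA ends. The other subunit, Xrcc5, stood close to a Dclre1c probe (0.30 and 0.32). The Xrcc6 probe (A_66_P108567) read 3.16, 3.23 and 3.07 on negative replicates 1 to 3 and 3.30, 3.41 and 3.20 on positive replicates 1 to 3. The groups overlapped, since the third positive array lay below the second negative one. The difference was 0.15 ± 0.14 (moderated SE, n = 3 per group, limma adjusted p = 0.487), with a 95% interval from -0.17 to 0.47. Its sign was negative with quantile normalization, with the authors' deposited values and with the percentile over detected probes. The Xrcc5 probe (A_51_P201661) read 1.65, 1.75 and 1.51 in negative and 2.00, 2.01 and 1.78 in positive cells. Every positive array was above every negative one, by as little as 0.03 at the closest, and the difference of 0.30 ± 0.15 did not pass (limma adjusted p = 0.201, 95% interval from -0.05 to 0.64). The Prkdc probe (A_51_P241667) read 0.00, -0.19 and -0.10 in negative and 0.18, 0.12 and -0.20 in positive cells. The lowest of the 6 values was a positive array, and the difference of 0.13 ± 0.16 did not pass (limma adjusted p = 0.588, 95% interval from -0.23 to 0.50). With the percentile over detected probes it was -0.04. These intervals leave room for differences of up to 0.47 to 0.64 on the log2 scale in the upward direction.

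Artemis, the nuclease that opens hairpins and trims overhangs, was measured with 4 probes for 2 RefSeq transcripts. For transcript NM_175683, the probe A_55_P2067116 read -3.07, -3.13 and -3.24 in negative cells and -2.40, -2.39 and -2.57 in positive cells. The 2 groups were well apart, and the difference was 0.69 ± 0.14 (limma adjusted p = 0.0153), or 1.62-fold. This spot was dim, between 30.0 and 58.8 intensity units, and with normexp background correction the difference was 0.37 and did not pass (adjusted p = 0.0839, the highest over the alternatives, against a lowest of 0.0125). It also missed the threshold with no filter on dim probes, with a variance trend, and without each of Tis21-GFP negative replicate 1, negative replicate 3 and positive replicate 1. For transcript NM_146114 both probes had positive differences of about the same size. One (A_55_P2129291) read 0.45, 0.41 and 0.16 in negative and 0.71, 0.65 and 0.61 in positive cells, a difference of 0.32 ± 0.14 (limma adjusted p = 0.17). The other (A_52_P462203) read -0.34, -0.46 and -0.45 against -0.14, -0.08 and -0.01, a difference of 0.34 ± 0.13 (limma adjusted p = 0.12). Neither passed, although the groups did not overlap for either. With the mean of the 3 tested probes, Dclre1c was called at 0.45. The fourth probe (A_55_P2067131) was well above background on 1 positive array and 0 negative arrays and was not tested. It read -4.57, -5.45 and -4.29 in negative and -4.33, -3.39 and -4.10 in positive cells.

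In the ligation complex the enzyme was called higher and its partners were not, although the differences were of similar size (0.61 for Lig4, 0.50 for Xrcc4 and Nhej1). Lig4 (A_52_P569549), the ligase that seals the break, read 0.22, 0.42 and 0.11 in negative and 0.96, 0.88 and 0.74 in positive cells. The lowest positive array was 0.32 above the highest negative one, and the difference of 0.61 ± 0.15 passed (limma adjusted p = 0.0325), or 1.53-fold. Over the alternatives it ran from 0.44 to 0.79, and 11 of 18 settings called it. It missed the threshold with the percentile over detected probes (0.44), with no filter on dim probes, with the array row as a block, and without each of negative replicate 1, negative replicate 3, positive replicate 1 and positive replicate 2. Xrcc4 (A_55_P1981205), which holds the ligase stable, read -0.76, -0.61 and -0.69 in negative and -0.26, 0.06 and -0.36 in positive cells. The groups did not overlap, and the difference of 0.50 ± 0.16 did not pass over all probes (limma adjusted p = 0.0707). Refitted and adjusted over genes with 1 probe each, the same difference passed (limma adjusted p = 0.0441, range over the alternatives 0.0413 to 0.216). Nhej1 (A_52_P128964), the XLF protein that aligns the ends, read 0.47, 0.93 and 0.76 in negative and 1.09, 1.36 and 1.22 in positive cells. All positive arrays were higher than all negative ones, the first negative array was the lowest of its group, and the difference of 0.50 ± 0.17 did not pass (limma adjusted p = 0.0816). It passed with median centring, with probes averaged per gene and with a variance trend.

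Trp53bp1, whose protein keeps broken ends from being resected, had the largest difference under the main scaling. It stood at 0.56 with quantile normalization and with the authors' deposited values, below the 0.84 of the dim Dclre1c probe, and at 0.56 with probes averaged per gene, below the 0.61 of Lig4. Its brighter probe (A_52_P464437) read 2.79, 2.81 and 2.78 in negative cells and 3.51, 3.78 and 3.40 in positive cells. The negative arrays agreed within 0.03, and the lowest positive array was 0.59 above them. The difference was 0.77 ± 0.15 (limma adjusted p = 0.0139), or 1.71-fold, and 95.3% of all tested probes had a difference no higher than this. Its call was lost when dim probes were kept, and when either Tis21-GFP negative replicate 1 or Tis21-GFP negative replicate 3 was left out, each time at 0.77, and was kept in the other 15 of 18 settings, at 0.56 to 0.95. The second probe of the same transcript (A_66_P139355) read -0.46, -0.47 and -0.48 in negative and -0.33, 0.06 and -0.09 in positive cells. The groups were again separate, but the difference of 0.35 ± 0.15 did not pass (limma adjusted p = 0.149). The log2 ratio between the 2 probes, in which a shift of a whole array cancels, was higher in positive cells by 0.42, with no overlap (exact permutation p = 0.1, two-sided, the smallest that 3 against 3 arrays allow, and 0.133 adjusted over 8 ratios). With quantile normalization and with the authors' deposited values it was higher by 0.19, again without overlap.

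**Figure D2:**
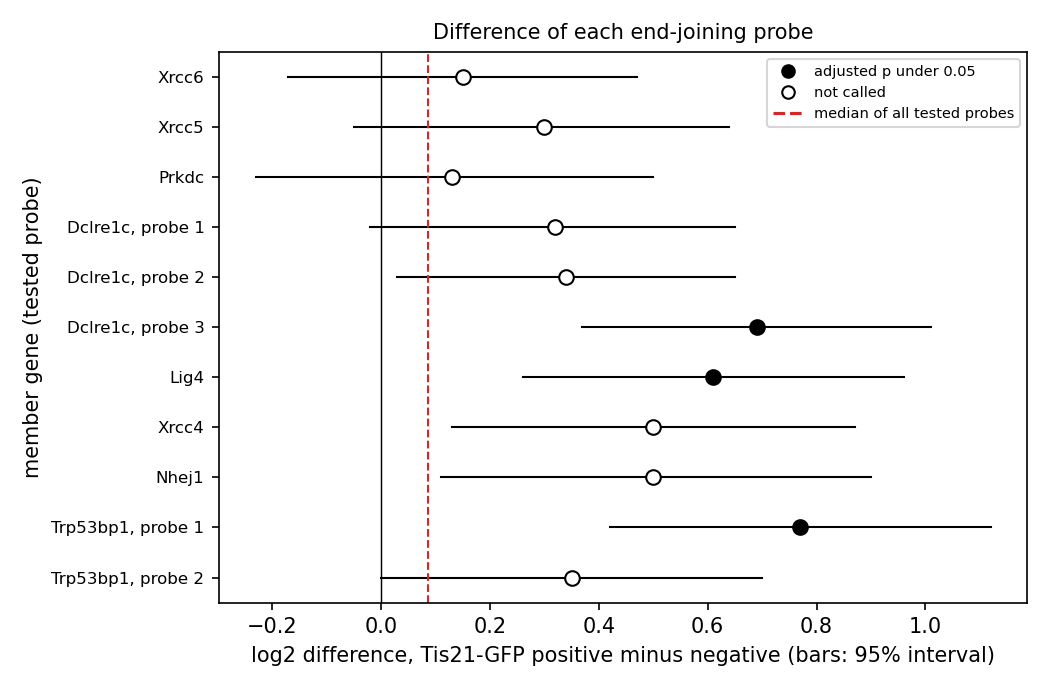
Log2 difference, Tis21-GFP positive minus negative, of each tested end-joining probe with its 95% interval. Filled points (Dclre1c probe 3, Lig4, Trp53bp1 probe 1) had an adjusted p under 0.05, and the dashed line is the median of all tested probes, 0.087.

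Other ratios within an array were computed after the values had been seen. The ratio of Lig4 to Prkdc was higher in positive cells by 0.48 on the log2 scale with no overlap between groups, and that of Xrcc5 to Xrcc6 by 0.15, also without overlap, although the latter was 0.23 with quantile normalization and overlapped with normexp background correction (0.11). Each had an exact two-sided permutation p of 0.1 over 6 arrays and 0.133 adjusted over the 8 ratios. For Lig4 and Xrcc4, partners in 1 complex, the ratio differed by 0.11 and the groups overlapped (exact p = 0.4, adjusted 0.457), and it differed by 0.04 with quantile normalization and 0.17 with normexp. The ratio of Trp53bp1 to Rif1, which encodes the effector that 53BP1 recruits to broken ends, was higher by 0.65 without overlap (exact p = 0.1, adjusted 0.133).

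**Figure D3:**
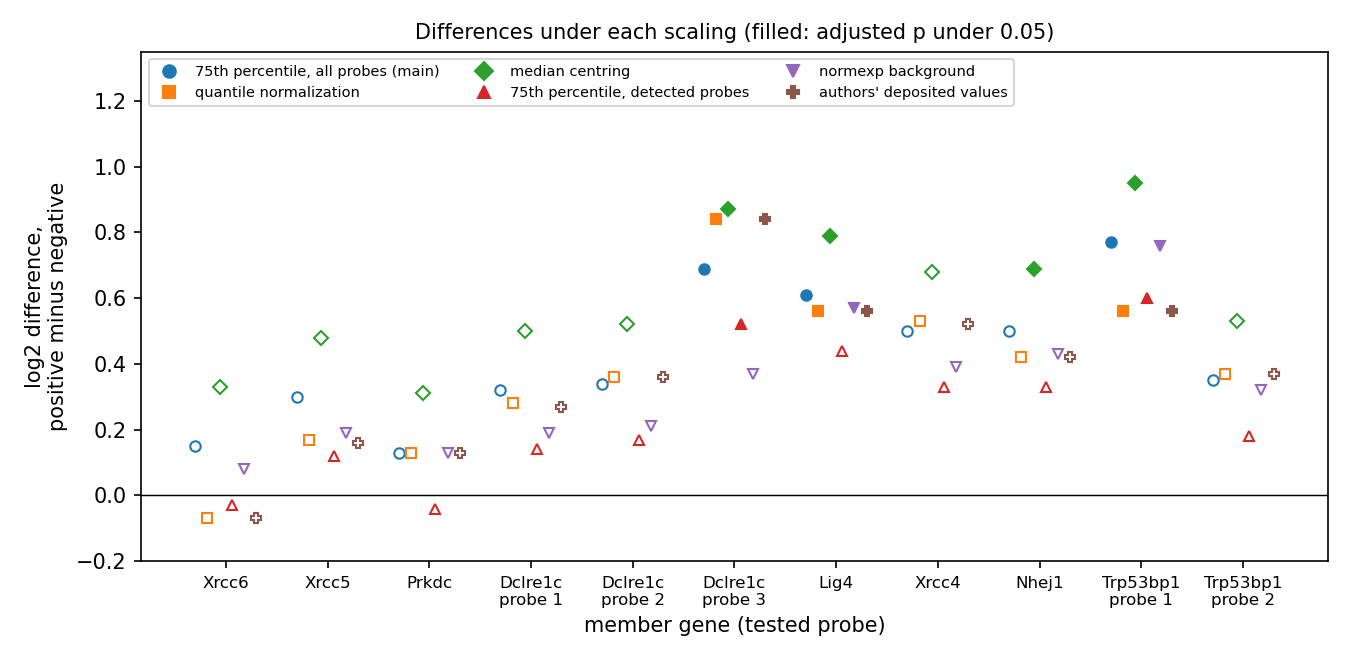
Log2 differences (positive minus negative) of the 11 tested probes under 6 ways of scaling or background correction, with filled symbols where the adjusted p was under 0.05. Trp53bp1 probe 1 is filled under all 6, whereas Xrcc6 lies between -0.07 and 0.33 and is filled under none.

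A close neighbour is something that several members have in common and that the choice of genes did not use. Lig4 and Abhd13 start 37 bases apart on opposite strands, Xrcc4 and Tmem167 59 bases apart, and Xrcc6 and Desi1 149 bases apart. Among the 27025 genes in the promoter table, 6.46% have such a divergent start within 150 bases. Neighbours of members were searched out to 1000 bases, and the limit of 150 lies just beyond the widest of these pairs. The share is therefore not a test of the members. Prkdc lies beside Mcm4, a subunit of the replicative helicase, with 44 bases between the boundaries of the genes. Prkdc did not match the promoter table, so its start was not used. Whether this pair is divergent was therefore not examined. The neighbours did not all move as the members did. Abhd13 read -1.46, -1.47 and -1.54 in negative and -1.49, -1.02 and -1.52 in positive cells, where only the second positive array stood above the others. Its difference was 0.15 ± 0.17 (limma adjusted p = 0.58), and the ratio of Abhd13 to Lig4 was lower in positive cells by 0.46 (log2 difference -0.46) without overlap (exact permutation p = 0.1, adjusted 0.133). With quantile normalization or the authors' deposited values (-0.33) and with normexp (-0.41), the groups overlapped in this ratio. Mcm4 read 3.81, 4.02 and 3.85 in negative and 4.64, 4.42 and 4.43 in positive cells, and it was called higher at 0.60 ± 0.14 (limma adjusted p = 0.0297). The ratio of Mcm4 to Prkdc was higher by 0.47 without overlap (exact permutation p = 0.1, adjusted 0.133), but by 0.21 and with overlap when quantile normalization or the authors' deposited values were used. The Mcm4 call was lost with quantile normalization (0.34), the authors' deposited values (0.33), the percentile over detected probes (0.43) and no filter on dim probes, and without each of negative replicates 1, 2 and 3 and positive replicate 1. Tmem167, by its brighter probe, had a difference of 0.45 ± 0.15 (limma adjusted p = 0.0749), close to the 0.50 of Xrcc4. Its ratio to Xrcc4 differed by -0.05, with overlapping groups (exact p = 0.5), by 0.02 with normexp, and by -0.28 without overlap with quantile normalization or the authors' deposited values. The dimmer Tmem167 probe stood at 0.16. Desi1 had differences of 0.27 to 0.41 over 3 probes, 0 of them called and with 0 free of overlap.

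**Figure D4:**
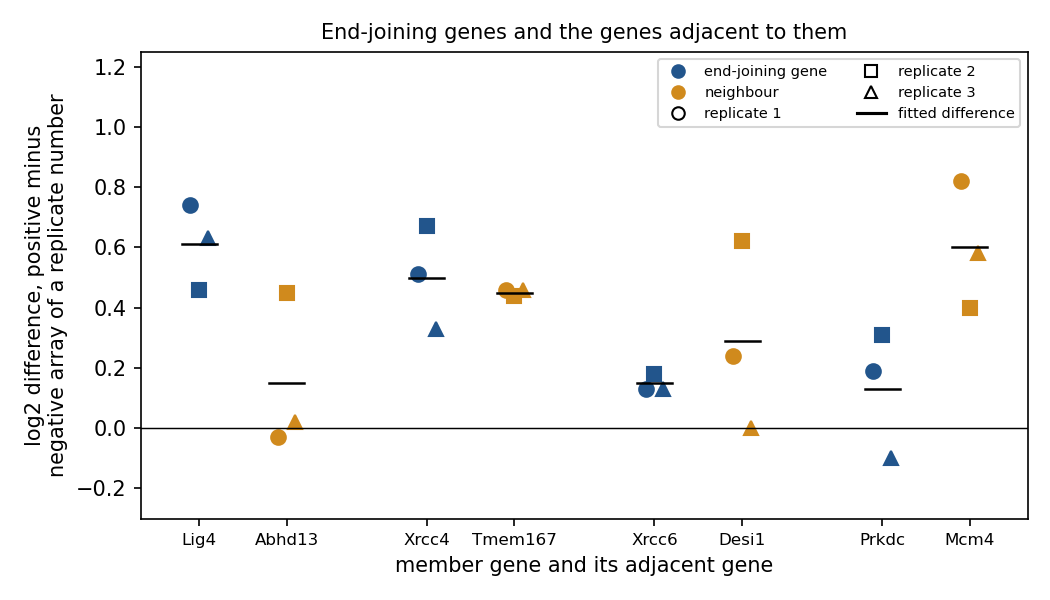
Log2 difference between the positive and the negative array of the same replicate number for 4 end-joining genes (blue) and the gene adjacent to each (orange), with shapes for replicate numbers and bars for the fitted difference. Prkdc lies below Mcm4 in every replicate, whereas Lig4 lies well above Abhd13 in replicates 1 and 3 and beside it in replicate 2 (0.46 and 0.45).

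Of other genes of break repair, 42 of 43 listed were on the array and 41 were tested, each by its brightest probe. Of these 41, 3 were called higher and 0 lower, beside 9.13% called higher and 11.3% called lower among all 13132 tested genes. At an unadjusted p under 0.05 there were 10 of the 41, a looser threshold for which the share of all genes is not given here. The median difference of the 41 was 0.28, against 0.115 over all tested genes. In the end-resection list, 1 of 9 was called, with a median of 0.39. This was Dna2, a nuclease and helicase of long-range resection, which read 0.05, -0.41 and 0.07 in negative and 0.75, 0.87 and 0.76 in positive cells (difference 0.89 ± 0.17, limma adjusted p = 0.0132). It was called in 17 of 18 settings and missed the threshold when dim probes were kept (adjusted p = 0.0557, against a lowest of 0.00345). Among partners of 53BP1, 1 of 6 was called, with a list median of 0.24. It was Mad2l2, the REV7 subunit of shieldin that also serves translesion synthesis, at 3.53, 3.15 and 3.14 in negative and 4.23, 4.48 and 3.95 in positive cells (difference 0.94 ± 0.19, limma adjusted p = 0.016). Its call was lost without Tis21-GFP negative replicate 2 (adjusted p = 0.0616), without Tis21-GFP negative replicate 3 (0.0699) and when dim probes were kept (0.0622), and the lowest adjusted p over the alternatives was 0.00249. Rif1 stood at 0.13 ± 0.14 (limma adjusted p = 0.563), and its sign was negative with the percentile over detected probes. Of 10 break-signalling genes, 1 was called and the list median was 0.29. The gene was Rnf8, a ubiquitin ligase that prepares chromatin for 53BP1, at 0.48 ± 0.13 (limma adjusted p = 0.0464). That call was lost with the replicate block (adjusted p = 0.0607, range over the alternatives 0.0139 to 0.319), with quantile normalization and the authors' deposited values (0.22 each), with the percentile over detected probes (0.31), when dim probes were kept, with the array row as a block, and when any 1 of the 6 arrays was left out.

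Accessory end-joining and end-processing enzymes gave 0 calls among 11 in limma (1 at an unadjusted p under 0.05), with a median of 0.21. The smallest adjusted p was that of Tdp2, which frees ends from trapped topoisomerase II, at 0.44 ± 0.14 (limma adjusted p = 0.0732). Alternative end joining, the error-prone route that uses short homologies, gave 0 calls among 5 in limma (2 at an unadjusted p under 0.05), with a median of 0.28. Polq, its polymerase, read 0.90, 0.81 and 1.08 in negative and 1.31, 1.37 and 1.46 in positive cells, a difference of 0.45 ± 0.14 (limma adjusted p = 0.0702). When the fit and the adjustment were made over genes, both Tdp2 and Polq passed (limma adjusted p = 0.0442 and 0.0423). The ranges over the alternatives were 0.0356 to 0.273 and 0.0337 to 0.261.

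For the 3 members with the smallest p by their brightest probe, which leaves out the dim Dclre1c probe, the genes most alike over the 6 arrays were found by the root mean square distance between values centred on each probe's mean. For Trp53bp1 they were Numa1 (0.033), Samd14 (0.037) and Spc24 (0.044), where the median distance over all genes was 0.398. For Lig4 they were Zfp513 (0.018), Samd10 (0.026) and Chchd6 (0.03), against a median of 0.338. For Xrcc4 they were Pde6d (0.025), Twnk (0.033) and Pcbp4 (0.033), against 0.306. Their differences between groups lay between 0.47 and 0.78, as the likeness requires.

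The groups also differed in their make-up. Btg2, the locus of the reporter, was higher in positive cells by 0.77 ± 0.18 (limma adjusted p = 0.0258), which matches the labels, and this call was lost without each of 5 of the 6 arrays, at 0.66 to 0.82, as well as in 2 other settings. Markers of intermediate progenitors were higher in 7 of 7. The level of a list is the log2 of its summed linear signals, in which the brightest probes weigh most. For this list it was 7.66 to 7.85 in positive and 4.90 to 5.43 in negative cells. That list includes Btg2, the locus of the reporter, so 1 of the 7 is not independent of the sort. Radial glia markers were lower in 7 of 9, with 7.15 to 7.43 against 8.0 to 8.24. Of 10 microglial markers, 10 were lower in positive cells. The level of that list lay between 2.10 and 2.97 in positive and between 3.84 and 4.23 in negative cells. Of 5 mesenchymal markers, 5 were lower, with levels from -1.15 to -0.55 against 1.51 to 2.67. On the positive arrays, P2ry12, Col3a1, Lum, Cdh5, Pdgfrb and Rgs5 were well above background nowhere. Of 7 tested endothelial and pericyte markers, 3 were lower, with a median difference of -0.93. The level over all 8 on the array was nonetheless 3.25 to 3.40 in positive against 3.01 to 3.20 in negative cells. Of 4 tested erythroid markers, 1 was lower. Of 8 neuronal markers, 4 were higher and 3 lower, and of 5 interneuron markers 1 was lower. In sorted pools, fewer cells of a type and less RNA per cell cannot be told apart. The part of these differences in the values of the end-joining genes was not tested.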

How the data were processed

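Each deposited scanner file gives the 1-colour (Cy3) intensity of every spot. The submitters' processing notes and the headers name Agilent Feature Extraction 10.7.1.1 as the software. The authors' deposited table holds log2 values, which correlated at 0.99948 or above with the log2 processed intensity of the same array. Its scale was read from the values, the median of every column was 4.67, and no source used here gives its normalization. With these values 4154 probes were called and with quantile normalization 4163, and the member differences were nearly the same. These settings are therefore not independent of each other. Control spots and outlier spots (118 to 191 per array) were left out, log2 values of replicate spots were averaged, and each array was scaled to its 75th percentile (212.7 to 340.7 intensity units). On the arrays, 51.2% to 56.2% of 55681 probes were well above background. Saturated spots numbered 0. Precision is limited by the number of arrays.

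Gene names came from RefSeq accessions without version (assembly GRCm38.p6), and 26364 matched. A probe entered the test if every array of 1 or both groups had it well above background. All such probes were fitted together in limma 3.58.1 (R 4.3.3, lmFit and eBayes) with no covariate beside the group, and p-values were adjusted over them by Benjamini-Hochberg. The fit was tested on simulated data. The members, lists and tests were chosen with earlier results of these data known. Other repair genes were named if called (up to 4 a list, by adjusted p), or as the list's smallest adjusted p where none was called. Rif1, Brca1 and the genes adjacent to members were named outside this rule, after their values had been seen.

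The replicate numbers in the labels were taken to pair the arrays. Deviations from group means correlated at 0.23, 0.13 and 0.37 between arrays of the same replicate number, and at -0.25 to 0.06 between unlike numbers. Arrays of the same number also lay in adjacent columns of the same row, so these correlations cannot tell pairing from position. The main fit did not use this pairing, which entered only the alternative with the replicate block. All 6 arrays lay on 1 slide from 1 scan, so neither could serve as a block. Positive arrays lay in columns 1 and 3 of the slide and negative arrays in columns 2 and 4. Column and group therefore cannot be told apart. P-values set the difference between groups against the spread between these samples, which were kept as the best of a larger number. The effect of that choice on the spread was not tested.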

Additional observations from a re-analysis of the deposited data

How the results depend on the processing

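The 3 called member probes numbered 0 with no filter on dim probes, where 55681 probes were tested and 5 members had an unadjusted p under 0.05, and 5 genes when probes were averaged per gene. Leaving out 1 array gave 0 to 3 called members, 2086 to 4749 called probes in all (4765 with all 6 arrays) and 1 to 2 called repair genes of 41. With no filter, 2269 probes and 0 repair genes were called. The 3 called repair genes became 8 with median centring, 5 with normexp background correction, 7 with 1 probe a gene, 8 with probes averaged per gene and 8 with a variance trend and robust fit. Signs turned for results that were not called. Xrcc6 stood at -0.07 with quantile normalization, -0.07 with the authors' deposited values and -0.03 with the percentile over detected probes. In that last setting Prkdc stood at -0.04, Rif1 at -0.05 and Abhd13 at -0.03, and leaving out 1 array gave Abhd13 values from -0.01 (without Tis21-GFP positive replicate 2) to 0.24. With the replicate block, 3 member probes, 3 repair genes and 5265 probes were called, and of the members' calls none changed. Among the repair genes the block replaced Rnf8 with Brca1, at 0.72 with an adjusted p of 0.0406 (0.185 without the block). The Brca1 probe was dim, at 20.2 to 65.7 intensity units, and its groups overlapped. It entered the test through the positive arrays alone, since only 2 of the 3 negative arrays had it well above background. The cause of these changes in calls and signs was not tested. Testing more or fewer probes moves both the adjustment and the moderated SE. For the brighter Trp53bp1 probe the SE was 0.15 in the main fit and 0.18 with no filter. The ratios between probes, and the settings they were repeated under, were chosen after seeing the data.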
